A study of Mus musculus with 6 samples.

Results

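The genes described here are the clustered histone genes of the mouse, taken as all symbols in the deposited tables that start with Hist1h, Hist2h, Hist3h or Hist4h. The rule found 67 of 32285 genes: 6 for the linker histone H1, 18 for H2A, 18 for H2B, 12 for H3 and 13 for H4. In the annotation, the 54 Hist1h genes lie on chromosome 13, the 10 Hist2h genes on chromosome 3, the 2 Hist3h genes on chromosome 11 and the 1 Hist4h gene on chromosome 6. Their levels were measured in single cells of organoids grown from esophageal epithelium of C57BL6 mice. The founding basal cells carried integrin-b1 on their surface and excluded DAPI, a dye that enters dead cells. They had been gated as Low or High for Cyto-ID, a dye of autophagic vesicles. The 2 kinds were grown apart in Matrigel for 15 days, and the organoids were then taken apart, freed of dead cells and made into 3′ libraries in droplets, in which each molecule carries a unique identifier (UMI). Each group had 3 libraries, labelled F2, M3 and F6. The labels do not say whether these are separate animals, so every p-value below measures the spread between these 6 libraries.

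Replication-dependent histone genes are switched on in S phase, when new DNA must be packed into nucleosomes. Most of their mRNAs end in a conserved stem-loop bound by SLBP (stem-loop binding protein) in place of a poly(A) tail, and they are degraded when DNA synthesis stops. Some of these genes also make polyadenylated mRNA, mainly in cells that have left the cycle. A kit that primes on poly(A) tails reads histone mRNA only as far as it carries such a tail or is primed elsewhere, so all levels below are levels of the mRNA that was captured.

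The 3′ ends and promoters of the members that the results turn on are printed first. The stem-loop was searched as GGNNCTTTTNAGNNCC (N is any base) in the GENCODE M21 annotation of GRCm38, in the transcript's own direction. For the members only the part after the stop codon was searched. It was present in 44 of the 67 members. Over the genome the whole transcript was searched, coding part included, so that count is not limited to the part after the stop codon. The letters were found in 98 of 58797 protein-coding transcripts (0.1667%), which belong to 72 genes, the 44 members included. By core type it was found for 4 H1, 11 H2A, 10 H2B, 8 H3 and 11 H4 genes. For 13 members the annotation holds no base after the stop codon, Hist1h1b among them, so nothing could be searched there. In the following 3 genes the annotated transcript runs on past the stem-loop, shown in capitals with the bases that come next:
Hist1h1c: GGCTCTTTTCAGAGCCaccactccca
Hist1h4i: GGCCCTTTTTAGGGCCaccacaaaat
Hist1h2ae: GGCTCTTTTCAGAGCCattcacttaa
In Hist1h1c the transcript goes on for 840 bases after the stem-loop and holds 2 poly(A) signal hexamers there. In Hist1h4i it goes on for 330 bases with 2 such hexamers, and in Hist1h2ae for 151 bases with 1. Such a run-on is not limited to these 3 genes. Hist1h1d and Hist1h4d, both higher in cycling cells, go on for 4884 bases with 12 hexamers and for 770 bases with 1. Hist1h2ap, by contrast, has the same stem-loop letters as Hist1h2ae and ends 3 bases after it. Hist1h2bc is annotated with 2 exons and 742 bases after its stop codon, in which the stem-loop letters were not found and 1 hexamer was.

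Promoters were taken from RefSeq (GRCm38.p6), which gave a 300-base window for 61 of the 67 members, from 250 bases before to 50 bases after the start. The 150 bases just before the start are shown for the H1 gene that was higher in cycling cells by the most, for an H1 gene and an H4 gene that behaved otherwise, and for Hist1h2ac. The last of these lies in the 250-base stretch chr13:23683949-23684198 between the starts of Hist1h2ac and Hist1h2bc, which point away from each other. Capitals mark exact matches, on either strand, to the letters of 4 motifs. These are the CCAAT box, the TATA box TATAAA, the octamer ATTTGCAT bound by POU factors, and the H1 box AAACACA. None of these 4 motifs overlaps another here. In Hist1h1b and Hist1h2ac TATAAA lies close to the start. In Hist1h4i it lies near the far end of the stretch, so there it is a match of letters and not a placed TATA box. Similar stretches that are not exact matches are left in small letters.
Hist1h1b, chr13:21780626-21780775, minus strand: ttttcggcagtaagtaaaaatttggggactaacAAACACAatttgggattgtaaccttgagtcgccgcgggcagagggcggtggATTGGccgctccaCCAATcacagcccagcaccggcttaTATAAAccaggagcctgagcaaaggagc
Hist1h1c, chr13:23738657-23738806, plus strand: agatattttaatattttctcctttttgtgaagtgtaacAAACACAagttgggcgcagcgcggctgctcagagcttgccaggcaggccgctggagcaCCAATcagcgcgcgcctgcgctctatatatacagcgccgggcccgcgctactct
Hist1h2ac, chr13:23683960-23684109, minus strand: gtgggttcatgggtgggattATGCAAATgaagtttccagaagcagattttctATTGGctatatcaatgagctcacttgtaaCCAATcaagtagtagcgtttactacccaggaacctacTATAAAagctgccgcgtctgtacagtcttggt
Hist1h4i, chr13:22041363-22041512, minus strand: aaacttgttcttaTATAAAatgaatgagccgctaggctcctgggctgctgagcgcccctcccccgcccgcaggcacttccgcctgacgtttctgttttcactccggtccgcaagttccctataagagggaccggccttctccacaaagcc
CCAAT stood in 52 of the 61 member promoters (85.25%) and in 37.41% of all 32851 promoters of the same length. It was found for all H1, H2A, H2B and H3 members with a promoter but for 3 of 12 H4 members. TATAAA stood in 35 members (57.38%, against 13.62% of all promoters). The octamer stood in 13 members (21.31% against 1.735%), of which 7 code for H2A and 6 for H2B. The H1 box stood in 5 of 6 H1 members and in 14.75% of members against 7.184% of all promoters. Members whose starts point away from each other, such as Hist1h2ah and Hist1h2bk, have windows that overlap. The same stretch can therefore count for both, and the member counts are not counts of separate sequences. These are matches of letters, and no binding was measured here.

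The 6 libraries held 25154 cells with at least 500 detected genes, of 26808 deposited barcodes, with 2667 to 5617 cells a library. Median depth ran from 1940.5 to 10038 UMIs a cell, and any 2 libraries shared 0 to 10 barcodes. Member histones took 0.0495% to 0.115% of all UMIs, which is 6465 to 45010 UMIs a library. UMIs were found for 65 members and for neither Hist1h2ba nor Hist1h2aa; 32 members stayed under 1 CPM (UMIs scaled to the same total in each cell, and averaged over cells) over all cells and 9 reached 10 CPM or more. Markers of other cell types were close to 0: the fibroblast list summed to 0.134 to 2.32 CPM with Col3a1 at 0 in all 6 libraries, the endothelial list to 0.0945 to 0.854 CPM with Cdh5 at 0, and the immune list to 8.35 to 22.0 CPM, almost all from Cd68, with Ptprc and Tyrobp at 0. Doublets were not called, and the labels do not mention their removal.

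Cells were called cycling where at least 2 of the mitotic and late-cycle genes Top2a, Mki67, Birc5 and Ube2c had a UMI; all remaining cells are called other cells. Values in 6 libraries are always given in the order Low F2, M3, F6 and High F2, M3, F6. The rule gave 310, 596, 90, 670, 422 and 539 cycling cells. None of the 4 genes is a histone gene. Cycling cells were deeper than other cells in each library, with median UMIs of 2811 to 13760.5 against 1851 to 9600.

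Summed over the 67 genes, histone mRNA was higher in cycling than in other cells of each library. The summed level in cycling cells was 2705, 1603, 3827, 1865, 1463 and 2599 CPM, against 961, 445, 756, 760, 396 and 680 CPM in other cells. The 2 sets of values did not overlap. Of the summed histone CPM of cycling cells, averaged over libraries, 49.5% came from H1, 27.8% from H2A, 9.41% from H2B, 4.81% from H3 and 8.48% from H4. In other cells H1 held 50.0%, H2A 9.63%, H2B 27.9%, H3 2.83% and H4 9.61%, so the shares of H2A and H2B stood the other way round. With all layers together the H2B sum was 209 CPM in cycling and 186 CPM in other cells (means over libraries). In the same cells H2A had 675 and 63.6 CPM. Within the basal range, defined below, the H2B sum was 210 CPM in cycling and 116 CPM in other cells. There H2A held 28.2% and H2B 8.89% of the sum in cycling cells, against 12.9% and 20.8% in other cells. Most of the H2B sum in other cells came from the single gene Hist1h2bc, described below. A UMI counts a captured 3′ end once whatever the length of the mRNA, so levels of different genes were not divided by length. Core types also differ in own share, the part of a transcript's sequence, in read-length windows, that occurs in no other annotated transcript. It ran from 73.97% to 100% for H1 members, 0% to 100% for H2A and 4.715% to 100% for H2B. For H3 it was 0% to 78.95% and for H4 11.54% to 100%. How reads that fit several genes were counted is not given, so the shares of core types may be shifted. By how much was not tested.

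The sum also moved with the number of the 4 cycling genes found in a cell. In the Cyto-ID Low library F6 it was 714, 1677, 3014, 4001 and 4734 CPM in cells with 0, 1, 2, 3 and 4 of them. In the Cyto-ID High library F2 the same steps held 776, 682, 984, 1584 and 2375 CPM. The lowest level lay at 1 gene in the F2 libraries of both groups and in the Cyto-ID Low library M3, and at 0 genes in the other 3 libraries. In the Cyto-ID High library F6 the sum stayed between 2572 and 2650 CPM from 2 to 4 genes. Deeper cells can show more of the 4 genes, and what depth adds to these steps was not tested.

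**Figure D1:**
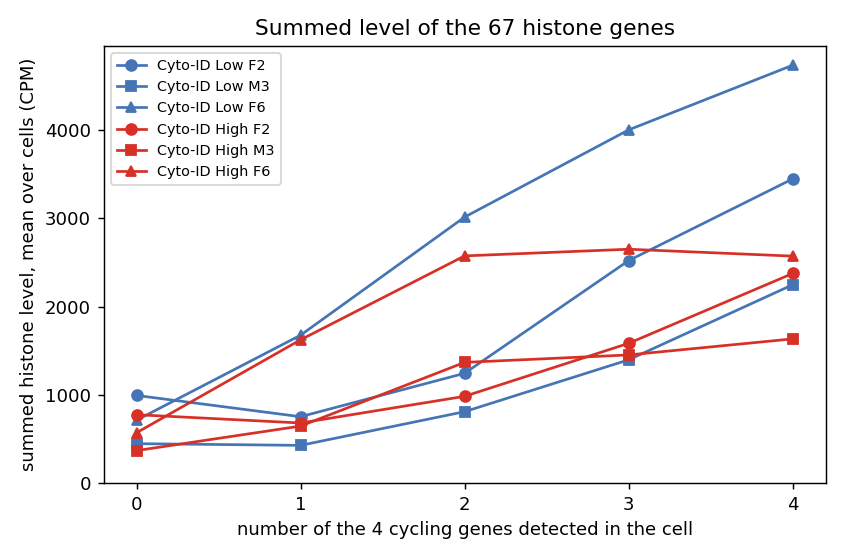
Summed level of the 67 histone genes (CPM, mean over cells) against the number of the 4 cycling genes detected in the cell, 1 line a library (blue Cyto-ID Low, red Cyto-ID High). The Cyto-ID Low library F6 goes from 714 to 4734 CPM, while the Cyto-ID High library F6 stays between 2572 and 2650 CPM from 2 genes on.

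Member by member, 37 of the 67 genes passed the filter of at least 1 CPM in enough libraries, and 30 of these were higher and 2 lower in cycling cells (limma with the library as a block, adjusted over all genes tested). Of all 11560 genes tested, 33.9% were called, 15.8% higher and 18.1% lower. The median log2 difference of the 37 was 1.71, and that of all genes was -0.03. The filter keeps a gene that is high only in cycling cells, so the 37 are not a sample of the 67. With all genes that have any UMI tested, 34 of 65 members were higher and 1 lower, where 3530 of all 20465 genes were called; 29 of the 30 stayed among the higher, and Hist1h2bg and Hist1h2bc lost their call. By core type, 4 of 5 tested H1 genes, 6 of 8 H2A, 9 of 10 H2B, 7 of 7 H3 and 4 of 7 H4 genes rose. The exceptions were Hist1h1c and Hist1h2bc, which fell, and Hist3h2a, Hist1h2ac, Hist2h4, Hist4h4 and Hist1h4i, whose log2 differences lay between -0.01 and 0.58 without passing. With the cycling genes read after each cell was thinned to 1000 UMIs, 25 members were higher and 2 lower, and Hist1h2br, Hist1h2bh, Hist1h3d, Hist1h2be, Hist1h4c and Hist1h4a lost their call.

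**Figure D2:**
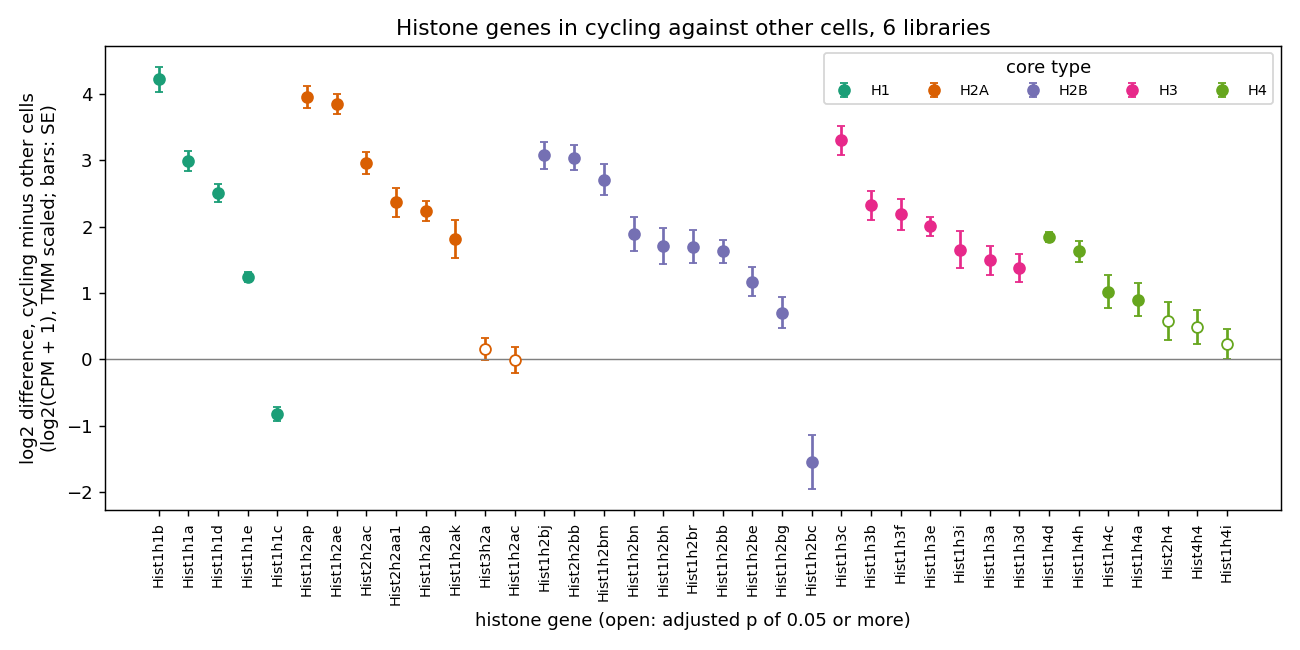
Difference between cycling and other cells (log2(CPM + 1), TMM scaled) for the 37 tested histone genes, coloured by core type, with SE bars over 6 libraries; open points did not pass the adjusted threshold of 0.05. Hist1h1b stands at 4.22, and Hist1h1c and Hist1h2bc are the 2 filled points under 0.

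The linker histones bind DNA where it enters and leaves the nucleosome. Hist1h1b, which codes for H1.5 and lies at chr13:21779883-21780625 on the minus strand (GRCm38, 1 exon), had 777, 503, 1214, 444, 621 and 393 CPM in cycling cells. In other cells it had 22.6, 16.4, 44.3, 18.2, 37.2 and 45.4 CPM. Each cycling value was therefore above every value of other cells, by 8.66 to 34.4 times within a library, and the log2 difference was 4.22 ± 0.19 (SE; adjusted p = 5.7e-09). Hist1h1a and Hist1h1d, for H1.1 and H1.3, rose by 2.99 ± 0.15 and 2.51 ± 0.14 on the log2 scale from other-cell medians of 4.08 and 6.96 CPM.

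Hist1h1e, which codes for H1.4, started from a higher level in other cells, at 123, 60.2, 201, 73.6, 54.3 and 85.0 CPM. Its cycling values were 325, 160, 479, 168, 182 and 238 CPM, higher in each library, with a log2 difference of 1.24 ± 0.07. Hist1h1c, for H1.2, went the other way. It had 371, 129, 174, 287, 106 and 96.3 CPM in other cells and 182, 105, 125, 130, 74.4 and 64.8 CPM in cycling cells. It was lower in 6 of 6 libraries, at 0.45 to 0.82 of the other-cell level, although the 2 ranges overlap; the log2 difference was -0.82 ± 0.10 (adjusted p = 3.8e-05). So with all layers together the H1 members differed in sign as well as in size. Within the basal range, described below, 4 of 5 tested H1 genes were higher and 0 lower, and Hist1h1c was not called (-0.21).

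H2A pairs with H2B in the dimers that flank the H3-H4 core of the nucleosome. Hist1h2ap had 505, 222, 473, 375, 26.9 and 230 CPM in cycling cells and 17.6, 9.20, 19.7, 19.9, 1.31 and 25.6 CPM in others. The Cyto-ID High library M3 was low in both kinds of cell, yet within each library cycling cells stood at least 9.0 and at most 28.6 times higher (log2 difference 3.96 ± 0.16). Hist1h2ae had 222, 103, 267, 206, 71.2 and 603 CPM in cycling and 7.26, 5.26, 13.6, 10.3, 4.12 and 73.5 CPM in other cells, with the Cyto-ID High library F6 highest in both. It rose by 3.85 ± 0.15 on the log2 scale. Levels of these 2 genes are uncertain one by one, because they share sequence with other H2A genes: only 7.65% of the 91-base windows of the Hist1h2ap transcript, and 68.2% of those of Hist1h2ae, occur in no other annotated transcript, and how reads that fit several genes were counted is not given in the sources used here. The own share is 38.1% for Hist2h3c2, 50.5% for Hist1h3e, 52.9% for Hist2h2bb, 54.2% for Hist1h2bg, 56.0% for Hist1h2bj and 60.0% for Hist1h4h. It is 65.8% for Hist1h2bb, 66.4% for Hist1h3a and 68.7% for Hist1h3c. Levels of all these genes are uncertain in the same way. The own share is 74.0% for Hist1h2bc, 82.9% for Hist1h4i, 94.4% for Hist1h1c and 100% for Hist1h1b.

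Hist2h2ac, the third H2A member by mean level in cycling cells, stands head to head with an H2B gene in the chromosome 3 cluster. It had 33.1, 17.3, 122, 19.0, 32.6 and 54.8 CPM in cycling cells and 1.33 to 8.50 CPM (median 2.75) in others, with no overlap (log2 difference 2.96 ± 0.17). Hist1h2ac and Hist3h2a were the H2A members with no call, at -0.01 and 0.15. Hist3h2a had 7.94 to 15.0 CPM (median 10.4) in cycling and 3.74 to 11.8 CPM (median 9.20) in other cells.

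Among H2B genes, Hist1h2bc had the highest level in other cells, and in cycling cells in every library except the Cyto-ID Low library F6. Of the 10 tested H2B genes it was the one called lower. It had 294, 141, 101, 235, 90.5 and 164 CPM in other cells against 129, 120, 3.95, 134, 45.6 and 94.6 CPM in cycling cells. It was lower in 6 of 6 libraries, with a log2 difference of -1.55 ± 0.40 (adjusted p = 0.0102). The Cyto-ID Low library F6 rests on 1 UMI in 90 cycling cells; without this library the difference was -0.94 (adjusted p = 5.3e-06). The call was lost when all genes with any UMI were tested (-1.59, adjusted p = 0.0889). The neighbours in level rose: Hist1h2bj had 9.51 to 41.8 CPM (median 23.5) in cycling and 0.659 to 5.03 CPM (median 1.36) in other cells, a log2 difference of 3.07 ± 0.20. Hist2h2bb had 11.1 to 59.1 CPM (median 23.5) against 0.536 to 3.92 CPM (median 1.63), a difference of 3.04 ± 0.19. Hist1h2bb had 4.76 to 25.4 CPM (median 11.5) against 1.10 to 5.17 CPM (median 2.63). The smallest rise among H2B genes, Hist1h2bg at 0.70 ± 0.23 (adjusted p = 0.0332), was not called when the Cyto-ID Low library F2 or M3 or the Cyto-ID High library F2 or F6 was left out, nor with log2(CPM + 0.1), any UMI, at least 1000 genes a cell or 3 cycling genes required.

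All 7 tested H3 genes rose. H3 carries the N-terminal tail on which many histone modifications sit. Hist1h3c had 18.0, 11.1, 74.2, 15.4, 16.1 and 73.7 CPM in cycling cells and 0.626, 0.488, 1.98, 0.895, 1.11 and 6.76 CPM in others (log2 difference 3.30 ± 0.21), with both F6 libraries well above the other 4. Hist1h3e had 11.0 to 69.8 CPM (median 19.4) against 2.57 to 13.1 CPM (median 3.52), a difference of 2.01 ± 0.14. Hist1h3a, at 6.80 to 19.6 CPM (median 7.36) against 1.72 to 3.71 CPM (median 2.58), rose by 1.49 ± 0.22.

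H4 was mixed. Hist1h4d had 101, 61.9, 297, 56.0, 119 and 182 CPM in cycling and 23.7, 14.5, 78.3, 15.8, 24.7 and 42.8 CPM in other cells, higher in each library (log2 difference 1.85 ± 0.08). Hist1h4h, at 6.82 to 35.0 CPM (median 18.4) against 1.92 to 9.12 CPM (median 4.84), rose by 1.63 ± 0.16. Hist1h4i did not pass: it had 26.5, 31.8, 7.43, 30.3, 24.5 and 32.1 CPM in cycling and 30.1, 13.7, 12.8, 22.7, 16.4 and 14.3 CPM in other cells. It was higher in 4 libraries and lower in the Cyto-ID Low libraries F2 and F6, the latter with 3 UMIs in cycling cells, and the log2 difference was 0.24 ± 0.23. Without the Cyto-ID Low library F6 it was 0.47 and passed (adjusted p = 0.0376).

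**Figure D3:**
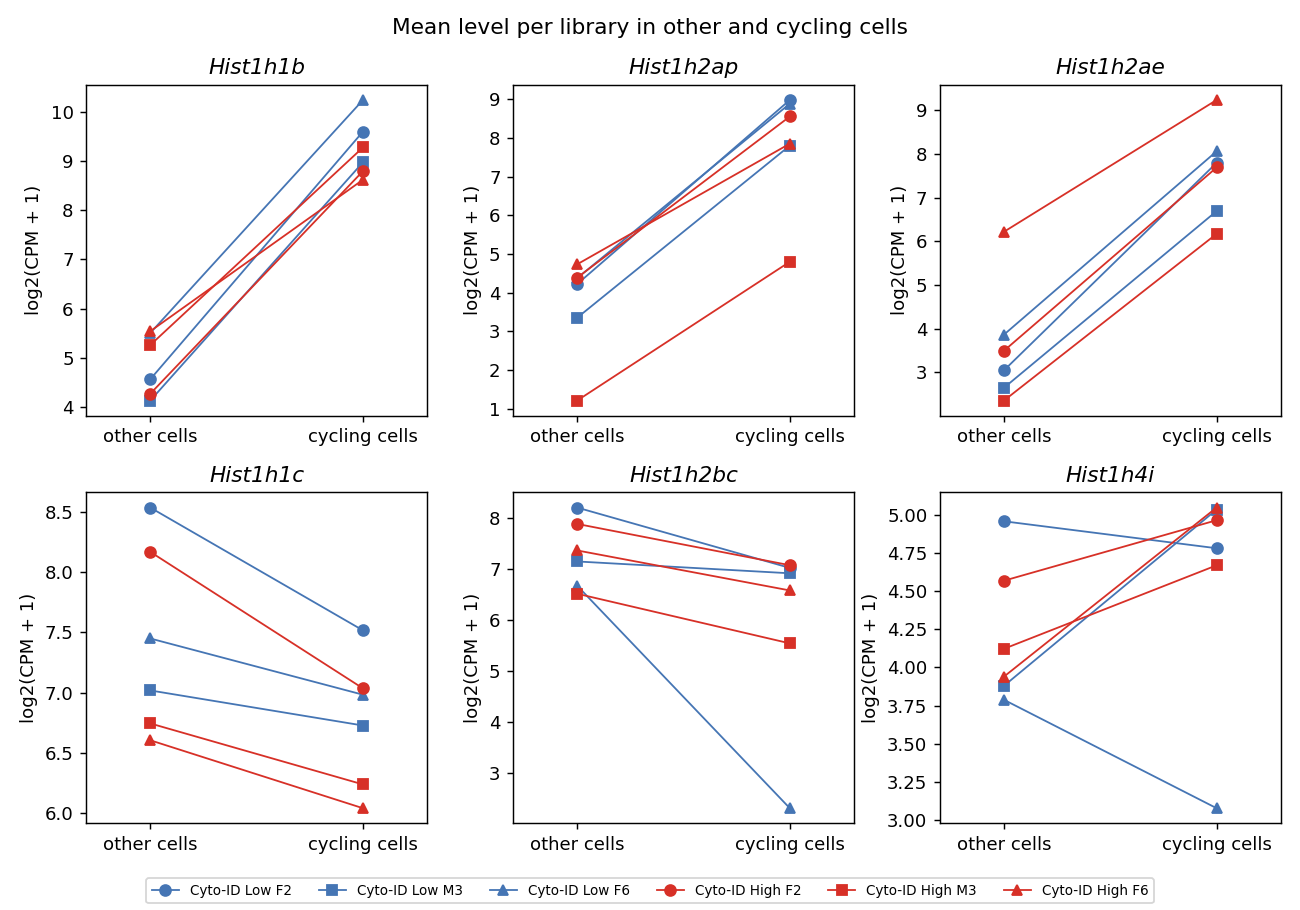
Mean level per library (log2(CPM + 1)) in other and cycling cells for 6 histone genes, 1 line a library (blue Cyto-ID Low, red Cyto-ID High). The lines of Hist1h1b, Hist1h2ap and Hist1h2ae go up and those of Hist1h1c and Hist1h2bc go down in all 6 libraries, while those of Hist1h4i cross.

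Cycling cells were rare in the upper layers, so the comparison was repeated with the layer held the same. Layers were read from the share of Krt4 and Krt13, keratins of the upper layers, among the UMIs of Krt4, Krt13, Krt5 and Krt14, in cells with at least 10 such UMIs. A share under 0.1 is called the basal range, 0.1 to 0.5 the middle range and above 0.5 the suprabasal range, of which cells with at least 0.1% of UMIs from Sprr2f, Psca, Duoxa2 and Tspan1 form the superficial range. These are ranges along a score and not cell types: 431 to 1066 cells a library lay near the lower keratin limit. The hemidesmosome genes Itgb4 and Col17a1 had medians of 343 and 413 CPM in the basal and 0 in the superficial range. Their lowest library median in the basal range was also 0. The basal markers Krt15 and Trp63 had medians of 0 in both ranges. Psca, at 284 and 43833 CPM, is part of the definition and no check of it. Of the other genes of that definition, Sprr2f had a median of 44.3 CPM and Duoxa2 and Tspan1 of 0 in the superficial range. Of the basal range 4.98% to 20.2% of cells were cycling, and of the superficial range 0.329% to 2.05%.

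Within the basal range, 30 of 37 tested members rose in cycling cells and 0 fell; of all genes tested, 17.7% were called (9.27% higher, 8.39% lower). Here too the filter can keep a member through its cycling level alone. With all genes that have any UMI tested, 1602 of all 19285 genes were called. Of 64 members in that test 31 rose and 0 fell, 28 of them among the 30. Hist1h1b (4.02 ± 0.22), Hist1h2ap (3.76 ± 0.19) and Hist1h2ae (3.72 ± 0.19) had the largest log2 differences among them. Hist1h4i was here among those that rose, from 4.89 to 14.5 CPM (median 7.46) to 4.24 to 35.3 CPM (median 31.7), a log2 difference of 1.28 ± 0.30 (adjusted p = 0.0113). That call was lost with all genes that have any UMI tested (1.27, adjusted p = 0.0762), as was that of Hist1h4c. Hist1h1c and Hist1h2bc were not called, at -0.21 ± 0.10 and -0.66 ± 0.34. Without the Cyto-ID Low library M3, Hist1h1c was called lower (-0.31, adjusted p = 0.0347), and without the Cyto-ID Low library F6 the value of Hist1h2bc was -0.18. After thinning, 23 members were higher, and 21 of these were among the 30; Hist1h3a, Hist1h3d, Hist1h3f and Hist1h3i were among those that lost their call, and Hist1h2bc was called lower (-0.87, adjusted p = 0.0492).

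Cycling cells were then split by the share of 10 DNA replication genes (such as Mcm2 and Pcna) in the sum of these and 8 mitosis genes (such as Ccnb1 and Plk1). The split gave 39 to 236 replication-leaning and 38 to 392 mitosis-leaning cells a library. Of 46 tested members, 2 were higher in replication-leaning cells and 0 lower, where 1.24% of all genes were called (0.585% higher, 0.656% lower). Hist1h1b had 970, 786, 1509, 514, 976 and 521 CPM in replication-leaning cells against 690, 420, 1143, 416, 492 and 335 CPM in mitosis-leaning cells. It was higher in each library, although the ranges overlap, with a log2 difference of 0.63 ± 0.08 (adjusted p = 0.0024). Hist1h2ae, at 0.40 ± 0.08, passed at an adjusted p of 0.0419 but not when any 1 library other than the Cyto-ID Low library F6 was left out (adjusted p from 0.0847 to 0.165). Hist1h2bc had 59.3, 50.9, 0, 52.8, 30.1 and 86.7 CPM in replication-leaning and 175, 150, 9.42, 161, 42.3 and 107 CPM in mitosis-leaning cells; its difference of -1.44 ± 0.31 missed the threshold (adjusted p = 0.0560). Without the Cyto-ID Low library F6, which had 39 and 38 such cells, 4 members were higher, with Hist1h2ap and Hist1h1a added, and Hist1h2bc was lower.

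Genes that serve histone supply were followed beside the members, against the 15.8% of all genes higher and 18.1% lower in cycling cells. Of 9 tested genes on the list for histone mRNA processing, which also holds the transcription gene Npat, 6 rose in cycling cells and 0 fell, with Slbp, which binds the stem-loop, at 0.84 ± 0.11 and Npat, the coactivator of histone transcription, at 0.72 ± 0.15 (log2). Of 19 chaperone and deposition genes 15 rose and 0 fell. Asf1b, which hands H3-H4 to the assembly factor CAF-1, rose by 3.21, and the CAF-1 subunits Chaf1a and Chaf1b by 2.34 and 1.84. Of 11 histone variants encoded outside the clusters 8 rose, among them H2afx, whose mRNA is made in a stem-loop and a poly(A) form, by 2.62 and H2afz by 1.49, and H2afj (-0.42) and H3f3a (-0.16) fell. In replication-leaning against mitosis-leaning cells, where 0.585% of all genes were higher and 0.656% lower, 2 of the processing genes (Slbp 1.32 ± 0.15, Casp8ap2 0.92 ± 0.18) and 4 of the chaperones (Chaf1b, Nasp, Hat1 and Nap1l1, 0.37 to 1.97) were higher and 0 lower. Of the variants 0 were higher and 2 lower, H2afx at -0.65 ± 0.12 and Cenpa, a gene of the mitosis panel itself.

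Layers were compared in other cells only, with cycling cells left out. Some histone signal tied to the cycling genes stays in them: other cells with 1 of the 4 genes had 418, 157 and 222 CPM of Hist1h1b in the Cyto-ID Low library F6 and the Cyto-ID High libraries M3 and F6, against 26.9, 24.4 and 25.2 CPM in cells with 0. The suprabasal and the superficial range are both set against the same basal cells, so the 2 comparisons share them. Range sizes were 1240 to 2561 basal, 31 to 290 suprabasal and 265 to 945 superficial cells a library. Against the basal range, 1 of 26 tested members was higher and 4 lower in the suprabasal range, where 23.2% of all genes were called (10.3% higher, 12.9% lower). Hist1h1b was the clearest. It had 34.5, 19.9, 58.1, 21.3, 60.4 and 57.2 CPM in the basal and 3.48, 10.6, 11.4, 5.25, 2.52 and 6.03 CPM in the suprabasal range, with no overlap (log2 difference -2.27 ± 0.39, adjusted p = 0.0015). Hist1h2ap (-1.75 ± 0.54), Hist1h3d (-1.20 ± 0.34) and Hist1h2ae (-1.08 ± 0.35) also fell, but each of these 3 calls was lost when 1 of several libraries was left out. Hist1h2ap was not called without the Cyto-ID Low library F2 or M3 or the Cyto-ID High library F2, nor with any UMI. Hist1h2ae was not called without the Cyto-ID Low library F2 or the Cyto-ID High library M3 or F6, nor with at least 1000 genes a cell. Hist1h3d was not called without the Cyto-ID High library M3 or F6, nor with superficial limits of 0.3% and 1%. Hist1h1b kept its call in all these settings, and the number called lower went from 2 (without the Cyto-ID Low library F2 or the Cyto-ID High library M3 or F6) to 6 (without the Cyto-ID High library F2). Hist1h2ap was at -1.13 without the Cyto-ID Low library F6, whose suprabasal range has 31 cells and no UMI of it.

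Hist1h1c was the member called higher in the suprabasal range, by 0.54 ± 0.13 (adjusted p = 0.0139). It had 172, 77.8, 140, 189, 72.2 and 76.7 CPM in the basal and 215, 93.0, 148, 237, 58.2 and 139 CPM in the suprabasal range, lower in the Cyto-ID High library M3. The call was lost without the Cyto-ID Low library M3 or the Cyto-ID High library F2 or F6 (0.40 to 0.44), and with at least 1000 genes a cell. On plain CPM, without the factors that align the bulk of genes, the median of all genes moved by -0.25 and 0 members were higher and 13 lower. With layer limits of 0.2 and 0.7, Hist1h1b kept its call while Hist1h1c, Hist1h2ap, Hist1h2ae and Hist1h3d lost theirs, and with log2(CPM + 0.1) Hist1h2ap and Hist1h2ae lost theirs. Changes between layers are relative to that bulk. After thinning, which leaves more cells with cycling genes among the others, 13 members were lower. In cells with 0 of the 4 cycling genes 1 member was higher and 5 lower: Hist1h1b was at -2.04 (adjusted p = 9.8e-04), and Hist1h2ap (-1.48, adjusted p = 0.0841) and Hist1h2ae (-1.11, adjusted p = 0.0999) were not called.

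In the superficial range 4 of 27 tested members were higher and 10 lower than in the basal range, where 64.8% of all genes were called (31.6% higher, 33.3% lower). The share of members called was thus below that of all genes, which were likewise split into higher and lower. Summed over the 67 genes, plain CPM was 597, 342, 795, 561, 396 and 746 in the basal range. The superficial sums were 1695, 881, 777, 1508, 527 and 541 CPM, lower only in the F6 libraries of both groups. Means over libraries went from 300 to 478 CPM for H1, 116 to 389 for H2B and 58.2 to 80.1 for H4. Those of H2A and H3 went from 77.5 to 30.4 and from 21.8 to 10.8 CPM. These sums were not tested. Hist1h1c had 763, 340, 273, 678, 221 and 181 CPM in the superficial range, against the basal values given above. It was 1.96 to 4.42 times higher in each library (log2 difference 2.29 ± 0.18, adjusted p = 7.7e-07). Hist1h2bc had 95.7, 77.2, 49.2, 131, 60.5 and 167 CPM in the basal and 665, 393, 234, 646, 197 and 170 CPM in the superficial range. All superficial values were above all basal ones, by 1.01 to 6.95 times within a library, with the Cyto-ID High library F6 at the low end (log2 difference 2.54 ± 0.33, adjusted p = 4.1e-05).

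Hist1h4i had 4.89, 6.10, 5.99, 8.81, 13.9 and 14.5 CPM in the basal and 78.9, 42.0, 34.7, 52.7, 29.9 and 8.93 CPM in the superficial range. It was higher in 5 of 6 libraries, the exception being the Cyto-ID High library F6 with 7 UMIs, and the log2 difference was 2.52 ± 0.48 (adjusted p = 6.8e-04). The fourth gene called higher, the H3 gene Hist2h3c2, is near the floor at 0 to 1.66 CPM (median 0.882) in the basal and 0.752 to 4.02 CPM (median 1.10) in the superficial range. Its difference of 0.80 ± 0.25 was not called without the Cyto-ID Low library M3 or the Cyto-ID High library F2, on plain CPM, with at least 1000 genes a cell, after thinning, with a superficial limit of 1% or in cells with 0 of the 4 cycling genes.

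**Figure D4:**
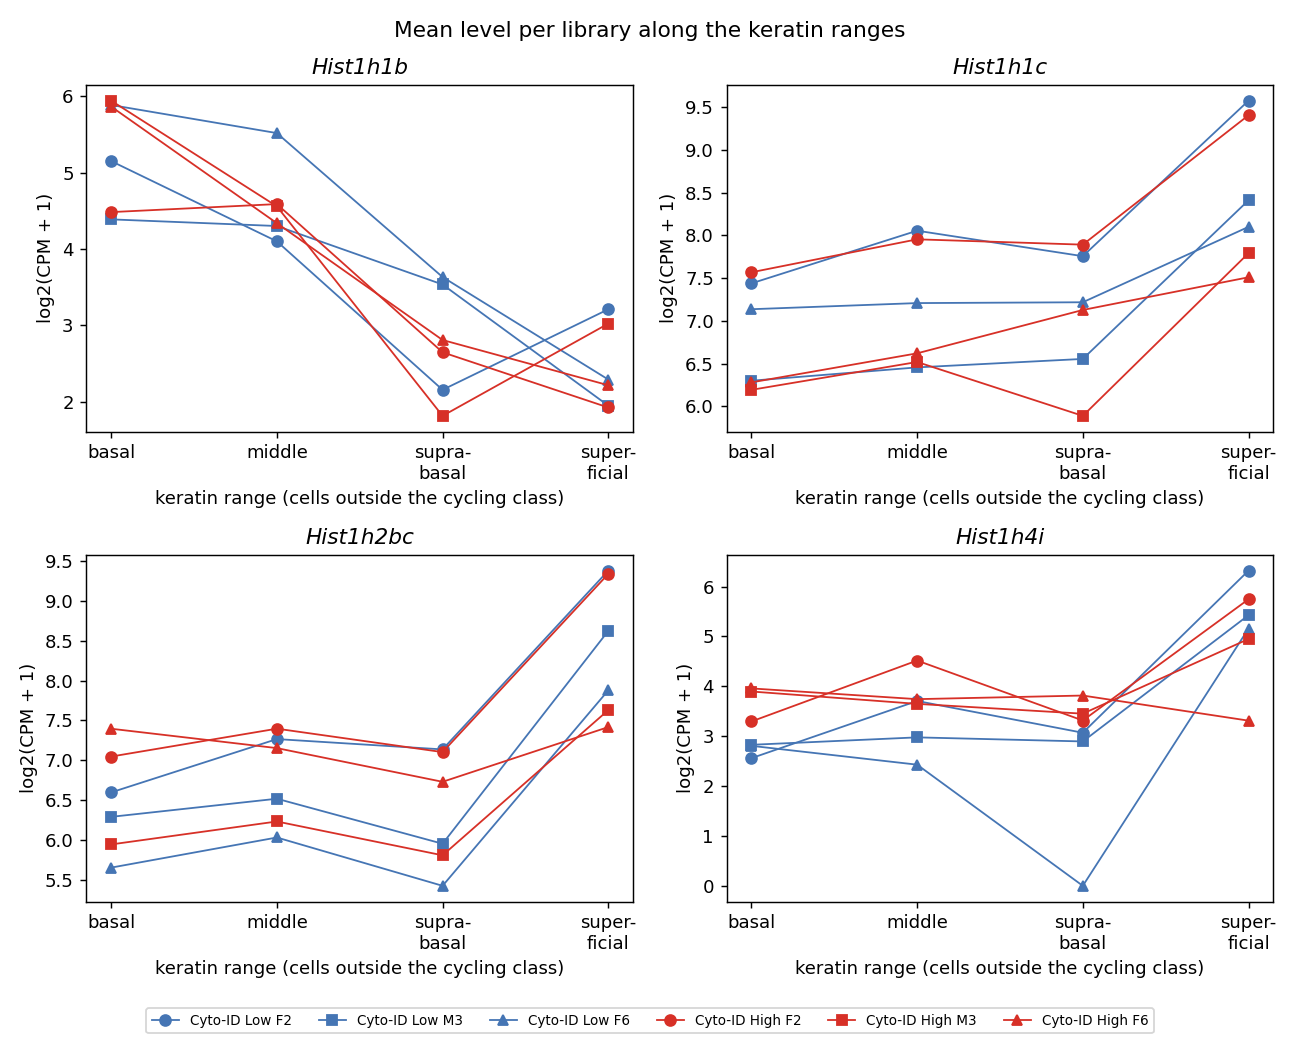
Mean level per library (log2(CPM + 1)) along the 4 keratin ranges in other cells, 1 line a library (blue Cyto-ID Low, red Cyto-ID High). Hist1h1b drops from basal to suprabasal cells in each library, while Hist1h1c, Hist1h2bc and, in 5 of 6 libraries, Hist1h4i are highest in the superficial range.

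The 10 members that fell were led by Hist1h1b, at 8.25, 2.92, 3.90, 2.79, 7.13 and 3.65 CPM in the superficial range (log2 difference -2.27 ± 0.26). Every superficial value of Hist1h1b was under every basal one. Hist1h2ae (-1.69 ± 0.36), Hist1h2ap (-1.34 ± 0.23) and Hist1h1d (-1.32 ± 0.27) came next by size, and Hist1h3e, Hist1h2bj, Hist2h2ac, Hist1h3c, Hist3h2a and Hist1h1e lay between -0.99 and -0.34. Hist1h1e had 65.6 to 255 CPM (median 90.4) in the basal and 31.5 to 109 CPM (median 47.7) in the superficial range. When 1 library was left out, 3 to 7 members were higher and 6 to 12 lower. Without the Cyto-ID Low library F6 only 6 were lower, since Hist3h2a, Hist1h2bj, Hist1h3e and Hist1h3c were no longer called. Without the Cyto-ID High library F6, 7 were higher, with Hist2h2aa1, Hist1h4h and Hist1h2ac added. On plain CPM, which moved the median of all genes by -0.57, the count was 3 higher and 12 lower. With all genes that have any UMI tested it was 4 higher and 15 lower of 65, and Hist3h2a, Hist1h2bj and Hist1h3e lost their call. Of the 10, Hist3h2a, Hist1h2bj, Hist1h3e and Hist1h3c each lost it in several settings, while Hist1h1b, Hist1h2ae, Hist1h2ap, Hist1h1d, Hist2h2ac and Hist1h1e kept it in all settings run. These include cells with 0 of the 4 cycling genes, where 3 members were higher and 7 lower and Hist1h1b was at -1.96 (adjusted p = 6.8e-06).

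For the head-to-head pair shown above, both values are given side by side. Hist1h2ac had 6.82 to 11.0 CPM (median 8.77) in the basal and 2.11 to 17.3 CPM (median 9.91) in the superficial range, against 170 to 665 CPM for Hist1h2bc in the superficial range. Its log2 difference was 0.53 ± 0.30 (adjusted p = 0.145), and the difference between the 2 genes was not tested. Hist1h2ac was called higher with summed UMIs, with layer limits of 0.2 and 0.7, with a superficial limit of 1% and without the Cyto-ID High library F6. In all, 12 pairs of members have starts that point away from each other within 500 bases.

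For the supply genes, the shares of all genes to read against are 31.6% higher and 33.3% lower in the superficial and 10.3% and 12.9% in the suprabasal range. Of 19 chaperone genes 11 fell and 1 rose in the superficial range, with the H1 and H3-H4 chaperone Nasp at -1.42 ± 0.17 and Chaf1b at -1.60 ± 0.28. Of 9 processing genes 3 fell, led by the U7 snRNP protein Lsm11 at -1.19 ± 0.21, and 1 rose (Lsm10, 0.44 ± 0.12). Of 11 variants 4 rose, H3f3a by 0.74 ± 0.11 among them, and 2 fell, H2afy2 by 2.33 and Cenpa by 1.49 on the log2 scale. In the suprabasal range 0 of 9 processing genes were called, 6 of 18 chaperones fell and 0 rose, and of the variants 4 fell and 1 rose (H2afj, 1.03 ± 0.10).

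Cyto-ID High and Low organoids were compared over 3 against 3 libraries. Cycling cells made up 8.74%, 10.6% and 3.37% of the Low and 15.4%, 9.41% and 12.0% of the High libraries, or 7.57% ± 3.76 and 12.3% ± 2.99 (SD, n = 3). The ranges overlap, and a two-sided exact permutation test gave p = 0.2, where 0.1 is the smallest value that 3 against 3 can give. With each cell thinned to 1000 UMIs the shares were 2.72% ± 1.18 and 4.78% ± 0.354 (SD, n = 3, exact permutation p = 0.1). Thinned shares were 2.89%, 3.80% and 1.46% in the Low and 4.62%, 4.53% and 5.19% in the High libraries, without overlap. With 3 of the 4 cycling genes required the shares were 5.32% ± 2.79 and 7.80% ± 3.23 (exact permutation p = 0.6). The labels were not used as pairs in these tests.

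In cycling cells the summed histone level was 2711 ± 1112 CPM in Low and 1976 ± 576 CPM in High libraries, and in other cells 721 ± 260 and 612 ± 191 CPM (SD, n = 3). The libraries of the 2 groups overlapped in both. Read by label, the High library was lower than the Low library of the same label in 3 of 3 pairs in both kinds of cell. Over all cells the sum was lower in the High library for F2 and M3 but not for F6 (911 CPM in High, 860 CPM in Low). The sum rests on a few abundant genes, and most tested members had a High minus Low difference above 0: 28 of 47 in cycling cells (median log2 difference 0.14, all genes 0.05), 23 of 31 in other cells (0.14, all genes 0.00) and 28 of 36 over all cells (0.21, all genes 0.00), none of them called. These differences are on levels scaled by the factors that align the bulk of genes, while the sums are plain CPM. On plain CPM the median of all genes moved by -0.19 in cycling, -0.11 in other and -0.10 over all cells. Members above 0 were not counted there. By core type, H1 in cycling cells was 1430 ± 577 CPM in Low and 848 ± 79.9 CPM in High libraries, where the Low library M3 lay within the range of the High libraries. H2A was 739 ± 305 against 611 ± 422 CPM, H2B 203 ± 22.7 against 214 ± 86.8 CPM, H3 124 ± 103 against 116 ± 87.8 CPM, and H4 216 ± 135 against 186 ± 83.5 CPM. In other cells H1 was 394 ± 163 against 280 ± 96.5 CPM and H2A 51.8 ± 13.2 against 75.4 ± 56.4 CPM. The SD bars of the groups overlap for each core type in both kinds of cell.

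**Figure D5:**
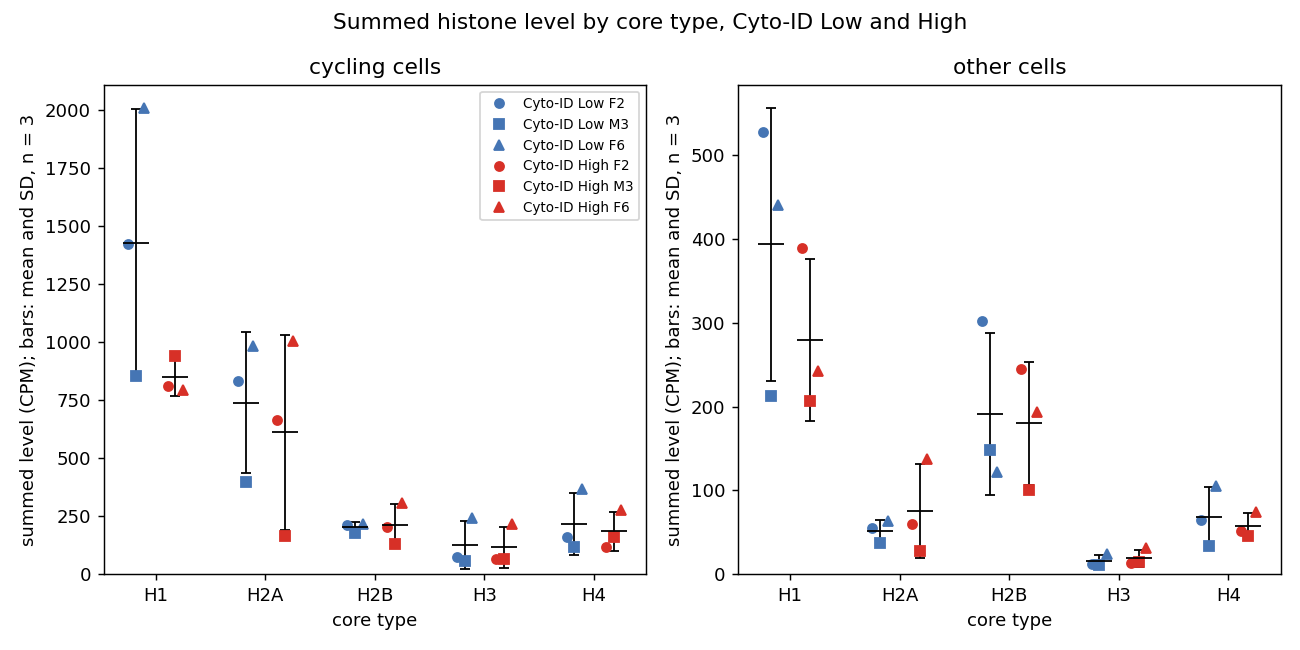
Summed level (CPM) by core type in cycling (left) and other cells (right), 1 point a library (blue Cyto-ID Low, red Cyto-ID High), with the mean and SD of 3 libraries. The bars of the 2 groups overlap for each core type; H1 in cycling cells is 1430 ± 577 CPM in Low and 848 ± 79.9 CPM in High libraries.

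Gene by gene, 0 members were called between Cyto-ID groups, and few genes were: 0.163% of those tested over all cells, 0.0602% in cycling cells, 0.138% in other cells and 0% for the difference between groups in the cycling effect. These 4 comparisons use the same libraries. The members tested were 36, 47, 31 and 37, of which 1, 1, 1 and 2 had an unadjusted p under 0.05 (limma). Over all genes these were 941 of 11645, 769 of 11634, 753 of 11573 and 464 of 11560. In the fit with the labels as pairs, 5, 5, 4 and 2 members were under 0.05 (limma, unadjusted). Over all genes that fit had 1836, 1123, 1687 and 484. The member with the smallest p in each comparison without pairs was named after its values were seen. Over all cells it was Hist1h2bj, with 2.25, 1.92 and 2.98 CPM in Low and 4.08, 3.89 and 9.45 CPM in High libraries, which do not overlap (log2 difference 1.02 ± 0.34, adjusted p = 0.543). In cycling cells it was Hist1h1a, with 70.3, 48.0 and 101 CPM in Low and 35.3, 29.9 and 35.4 CPM in High libraries, again without overlap (-0.83 ± 0.29, adjusted p = 0.675). For the difference in the cycling effect it was Hist1h1d (-0.63 ± 0.19, adjusted p = 0.889), and in other cells Hist3h2a (0.68 ± 0.29, adjusted p = 0.767). Hist1h1b in cycling cells differed by -0.49 ± 0.34 (adjusted p = 0.790). Of the processing, chaperone and variant genes 0 were called in any of the 4 comparisons.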

How the data were processed

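Single-cell 3′ libraries of 6 samples were measured. The submitters' processing notes name Cell Ranger 6.0.0, Seurat 4 and the build mm10 (GRCm38); the counting rule and the annotation are not given in the sources used here. The values the authors deposited are on a natural log scale, ln(1 + UMIs of the gene per 10000 UMIs of the cell), as read from the values; undoing the log gave whole UMIs for 100% of values within 1e-06. From these, the CPM of each class of cells was averaged within its library, divided by TMM factors (30% of log ratios and 5% of levels trimmed) and analysed as log2(CPM + 1), which understates changes of low genes. A count model was not run, as the plan for a deposited log unit had set, although the recovered UMIs would allow one. Genes with at least 1 CPM in as many columns as the smaller side has libraries were tested with limma 3.58.1 (R 4.3.3) with a trend, Benjamini-Hochberg adjustment over all genes and a threshold of 0.05; classes of the same library were compared with the library as a block.

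The members, lists and tests were chosen with earlier results of these data known. Members were given library by library if among the 3 highest of a core type in cycling or the 2 highest in other cells, or among up to 10 called between layers; those of lower level are given as ranges. The lists held 12 processing genes (10 in the tables), 19 chaperones and 11 variants. F2, M3 and F6 are labels in the titles. Deviations from group means correlated between same-labelled libraries at 0.76 (F2), 0.58 (M3) and 0.15 (F6) over 8878 genes (mean CPM of 5 or more), which meets the rule set for calling them pairs; the Cyto-ID values printed come from the fit without the pairs, and the paired fit is an alternative; the Cyto-ID Low F2 and High F6 libraries also correlated, at 0.17. Alternatives were plain CPM, another pseudocount, no filter, summed UMIs, stricter cells, other limits for cycling, phase and layer, thinning, a replicate block and each library left out. The superficial limit of 1% and, for the suprabasal comparison, 0.3%, and the layer comparisons in cells with 0 of the 4 cycling genes, were chosen after seeing the data.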

Additional observations from a re-analysis of the deposited data

Results flagged for a closer look

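Across the 6 libraries, 49 pairs of a named member and a within-library comparison were looked at for a library that stands apart, with Dixon's outlier test on 6 values. It marked 5, and chance marks about 1 in 20. All 5 are the Cyto-ID Low library F6, whose cycling class holds 90 cells and whose suprabasal range holds 31. In this library the cycling minus other difference of Hist1h2bc was -4.37 on the log2(CPM + 1) scale, against -1.18 to -0.23 in the other 5 libraries. Within the basal range it was -2.96, against -0.76 to 0.55. The difference of Hist1h3c was 4.66 over all layers, against 3.01 to 3.55, and 4.42 within the basal range, against 2.56 to 3.26. Between the suprabasal and the basal range Hist1h2ap differed by -5.00, with no UMI in the suprabasal cells, against -1.92 to -0.61.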

How the results depend on the processing

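No named member changed direction in any setting in which it was tested. The median of all genes turned sign on plain CPM in cycling against other cells, from -0.031 to 0.113. It also did so between Cyto-ID groups: from 0.048 to -0.145 in cycling, 0.004 to -0.102 in other and 0.005 to -0.097 over all cells. For the difference in the cycling effect it went from 0.025 to -0.060. For single named members 719 values stayed on their side of the threshold, 41 lost and 4 gained a call. In cycling against other cells the members called lower were 1 when all genes with any UMI were tested, where the cause was not tested; after thinning 25 were higher. Within the basal range 1 member was lower with 3 cycling genes required, beside 31 higher, and 1 after thinning, beside 23 higher (0 to 1 lower with a library left out). Replication-leaning cells had 1 member higher with log2(CPM + 0.1), any UMI, at least 1000 genes a cell, thinning and phase limits of 0.3 and 0.7, and those limits gave 1 lower; with a library left out the counts were 1 to 4 higher and 0 to 1 lower. For suprabasal cells, plain CPM gave 0 higher and 13 lower, thinning 13 lower, at least 1000 genes a cell 0 higher, layer limits of 0.2 and 0.7 0 higher, and a superficial limit of 1% 2 higher and 7 lower; with a library left out the counts were 0 to 1 higher and 2 to 6 lower. For superficial cells they were 3 to 7 and 6 to 12. With the replicate block, 0 members were called in each of the 4 Cyto-ID comparisons, as without it, while calls over all genes went from 19 to 64, 7 to 11, 16 to 96 and 0 to 0 (all, cycling and other cells, and the difference in the cycling effect); the smallest adjusted p of a member under the block was 0.134. Plain CPM moved the median of all genes by 0.14 in cycling against other cells. Of the 67 members, 32 stayed under 1 CPM; what depth adds to this was not tested.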
